A study of Mus musculus with 8 samples.

Results

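The genes described here encode the proteins of the mitochondrial ribosome, measured in mouse bone marrow cultures labelled as BMAd cells (bone marrow adipocytes). They were taken by symbol, as every gene of the deposited table named Mrpl or Mrps followed by a number, without pseudogene names, which gave 78 of 54134 genes. The test took 14985 genes with 1 TPM or more in 2 or more libraries, 76 of the 78 among them. TPM is a level per length, made from reads over gene length and scaled to one total in every library. Wild-type bone marrow stem cells were differentiated towards adipocytes for 14 days and then profiled by bulk Smart-Seq2, which amplifies full-length cDNA and keeps no strand. Control (n = 2) had the differentiation alone. GC (n = 3) had in addition 1e-06 M DEX (dexamethasone, a synthetic glucocorticoid) for 24 hours. GC+GW9662 (n = 3) had the same DEX together with GW9662, which blocks PPARγ, a nuclear receptor that drives adipocyte genes. The sources used here do not give its dose. The labels do not say whether replicates were separate cultures or animals, so p-values measure the spread between these libraries, which may be technical.

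Mitochondria keep their own ribosomes, which translate the few proteins encoded by mitochondrial DNA, all of them parts of the respiratory chain and ATP synthase. The ribosomal RNAs come from mitochondrial DNA, whereas every protein of the large subunit (mostly named Mrpl) and the small subunit (mostly named Mrps) is encoded in the nucleus, made in the cytosol and imported. Some of these proteins descend from bacterial ribosomal proteins and others were gained by mitochondria. Adipocytes are known to raise mitochondrial content as they differentiate.

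Several facts of the whole data set bear on these genes. Fkbp5 and Tsc22d3, both known to be induced by glucocorticoids, were lower in the libraries labelled GC, at 32.5 to 80.3 and 50.9 to 65.4 TPM, than in those labelled Control, at 429 to 463 and 543 to 572 TPM. In GC+GW9662, labelled with the same DEX, Fkbp5 was at 78.8 to 104 TPM, below Control, and Tsc22d3 at 401 to 455 TPM, between the other groups. Group names below are therefore only those of the labels. Summed marker genes were 1438 to 1456 TPM in Control, 179.6 to 254 in GC and 1234 to 1377 in GC+GW9662 for 10 adipocyte genes, of which Lep was listed at 0 in every library. The sums were 30911 to 31817 TPM in Control, 9442 to 9988 in GC and 24443 to 28430 in GC+GW9662 for 10 macrophage genes, and 5925 to 6191 TPM in Control, 93.8 to 129.5 in GC and 3401 to 3526 in GC+GW9662 for 11 stromal and osteoblast genes. Single genes did not all follow these sums in the test described below. Of the macrophage genes, 1 was higher and 9 lower in GC against Control, beside 16.2% and 39.1% of all genes. Of 9 tested adipocyte genes, 3 were higher and 4 lower in GC+GW9662 against Control, beside 14.1% and 48.6%. In every library the macrophage sum was above the adipocyte sum, so levels below are those of whole cultures and not of adipocytes alone. In bulk RNA, fewer cells of a type and less RNA per cell cannot be told apart, and the part of the marker shifts in the results below was not tested. A single gene, Fth1 (ferritin heavy chain), took 13.3 to 13.5% of all TPM in GC against 3.69 to 3.77% in Control and 3.75 to 3.91% in GC+GW9662. Estimated depth was 25225131 and 26524877 reads in Control, 17687861, 25623289 and 24949450 in GC replicates 1, 2 and 3, and 17438229 to 18472125 in GC+GW9662. Depth was thus not balanced between the groups, and its part in the results below was not tested. A tested member had a median of 965 reads per library, with a lowest value of 61 (Mrps33, GC replicate 2, a counting error of 12.8%). The libraries were amplified and carry no molecular identifiers, so this figure covers counting error only.

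The stretches before the transcription starts of 4 members are shown because these genes give the contrasting patterns described below. Mrps6 changed most of all members, and Mrpl52 was among the largest rises in GC+GW9662. Mrpl17 rose in GC and fell in GC+GW9662 against GC, and Mrpl12 rose in GC and did not pass between the GC groups. The fall of Mrpl17 and the rise of Mrpl12 did not hold in all settings given below. Both lost their call without GC replicate 3, and the fall of Mrpl17 reversed after removal of a trend with exon length. Each stretch is the RefSeq sequence (GRCm38.p6) upstream of the gene, 5′ to 3′ in the direction of the gene, ending before the first base that GENCODE M21 annotates as exon. Mrps6 lies at chr16:92058086-92058269 (plus strand), Mrpl17 at chr7:105811100-105811337 (minus strand), Mrpl12 at chr11:120484387-120484612 (plus strand) and Mrpl52 at chr14:54426659-54426908 (plus strand). Capitals mark matches to the motifs named after the sequences.
Mrps6: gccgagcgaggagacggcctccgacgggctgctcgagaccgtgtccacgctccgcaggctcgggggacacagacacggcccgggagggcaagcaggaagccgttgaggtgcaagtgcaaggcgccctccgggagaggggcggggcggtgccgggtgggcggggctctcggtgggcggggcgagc
Mrpl17: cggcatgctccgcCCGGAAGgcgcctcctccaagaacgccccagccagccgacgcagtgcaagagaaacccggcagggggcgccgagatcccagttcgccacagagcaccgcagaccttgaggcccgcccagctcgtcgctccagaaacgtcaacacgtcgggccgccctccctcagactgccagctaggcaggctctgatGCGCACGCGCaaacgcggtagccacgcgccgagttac
Mrpl12: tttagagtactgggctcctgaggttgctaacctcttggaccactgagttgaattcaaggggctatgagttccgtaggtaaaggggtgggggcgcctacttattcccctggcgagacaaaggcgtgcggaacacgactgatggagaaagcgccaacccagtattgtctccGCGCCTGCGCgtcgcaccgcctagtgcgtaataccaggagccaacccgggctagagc
Mrpl52: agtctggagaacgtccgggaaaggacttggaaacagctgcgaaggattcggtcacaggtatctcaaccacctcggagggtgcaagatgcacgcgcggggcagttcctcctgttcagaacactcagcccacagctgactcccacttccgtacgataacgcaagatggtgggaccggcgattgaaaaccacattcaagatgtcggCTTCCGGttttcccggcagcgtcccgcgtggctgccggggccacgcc

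Motifs were searched on both strands of windows from 250 bases before to 50 after each RefSeq start, in 75 windows of 69 members and in 32851 windows of all genes. The motif of NRF1, a regulator of nuclear genes for mitochondria, was in 17.3% of the members' windows and 4.60% of all windows. An ETS motif (CCGGAAG), the kind bound by GABP, was in 34.7% against 8.86%, and a YY1 motif (AAGATGGC) in 16% against 2.75%. The E-box CACGTG was in 9.33% against 7.15%, and TATAAA in 6.67% against 13.6%. The members' E-box share counts the same site of Mrpl2 in overlapping windows, at 131, 139 and 147 bases before their starts. A palindromic glucocorticoid response element was in 0 of 75 windows and in 0.475% of all. In the sequences above, Mrpl17 has an NRF1 match starting 49 bases before its RefSeq start and an ETS match at 237, Mrpl12 has an NRF1 match at 81, and Mrpl52 has an ETS match at 47. The Mrps6 window held no match to any of them. A match is a description of the letters and not a binding site. The 13 tested members with an NRF1 match had a median log2 change of 0.39 in GC against Control and 0.05 in GC+GW9662 against GC, beside 0.12 and 0.31 for the 54 without one, and in GC+GW9662 against Control 0.49 beside 0.53. For the ETS motif the medians of the 3 comparisons, in that order, were 0.02, 0.54 and 0.65 in 25 members with a match and 0.20, 0.12 and 0.36 in 42 without. For the YY1 motif they were 0.25, -0.06 and 0.54 in 12 members and 0.11, 0.32 and 0.49 in 55. The E-box and TATAAA were each in 5 tested members. These medians are descriptions with no test.

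Transcript levels of the members spread widely, and their median varied most between the GC libraries. The median member stood at 39.6 to 40.6 TPM in Control libraries, 43.4 to 55.8 in GC and 57.3 to 62.7 in GC+GW9662. By mean TPM over all 8 libraries, which is a level per length, the highest were Mrpl20 (417), Mrpl14 (266), Mrps6 (231), Mrpl52 (222) and Mrps21 (211). Mrps6 holds that place through the GC libraries, at 413 to 555 TPM, and was at 60.8 to 97.9 TPM in the other 5. Mrpl19 (7.54), Mrps5 (8.20), Mrpl47 (10.2), Mrps33 (11.2) and Mrpl1 (11.5) were the lowest tested. These are all proteins of 1 particle. The 2 members below the filter were Mrpl23, at 0.104 to 0.426 TPM, and Mrpl53, listed at 0 in every library. Mrpl53 shares 88.0% of its exon bases with Gm42688 on the same strand, and 33 of the 78 members share exon bases with some other gene, whose reads cannot be told apart from theirs where they overlap.

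The summed TPM of all 78 members was 4087 and 4329 in the Control libraries. It was 6315, 4444 and 5056 in GC replicates 1, 2 and 3, and 6533, 7069 and 6771 in the GC+GW9662 replicates. The GC+GW9662 libraries were the highest and the Control libraries the lowest, without overlap. GC replicate 1 stood above the other GC libraries, being the highest of its group for 66 of the 76 tested members. It also had the lowest estimated depth of the GC libraries, 17687861 reads, near that of the GC+GW9662 libraries. Within a group, the median coefficient of variation of the members was 3.87% for Control, 16% for GC and 7.16% for GC+GW9662.

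**Figure D1:**
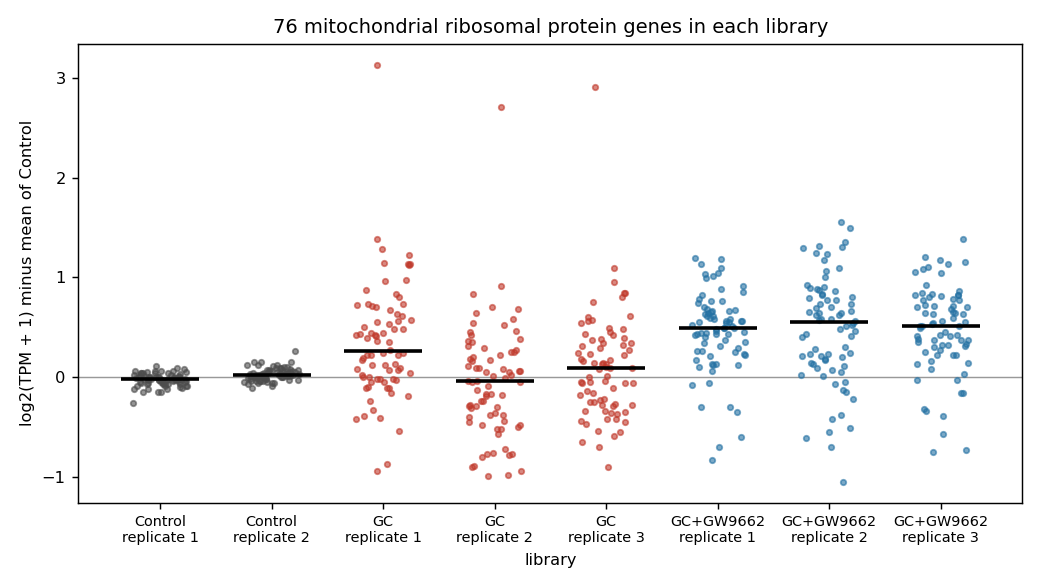
Each point is a tested member in a library, as log2(TPM + 1) minus the mean of the Control libraries, coloured by group, and black bars are medians over the 76 members. The GC+GW9662 libraries lie above Control as a body, GC replicate 1 lies above GC replicates 2 and 3, and the isolated high point in each GC library is Mrps6.

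In GC against Control most members did not pass the test, and those that did differed in both directions. Changes are given as log2(TPM + 1) differences ± SE from limma, with p adjusted over all 14985 genes and called at 0.05. This scale understates changes of low genes. In GC against Control, 18 of 76 members were higher, 8 were lower and 50 did not pass. Among all tested genes 16.2% were higher and 39.1% were lower, 55.3% together, and among the members 26 of 76 were called. The members' median change was 0.09, beside -0.38 for all genes, so their median lay 0.48 above that of all genes, and 65 of the 76 members were above it. Only 2 called members changed at least 2-fold on the log2(TPM + 1) scale, Mrps6 and Mrpl32.

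Mrps6, a small subunit protein with a bacterial counterpart encoded at chr16:92058270-92112227 (coordinates of genes are those of the deposited table), changed more than any other member. Its values were 60.8 and 63.9 TPM in Control, 555, 413 and 476 TPM in GC and 91.9, 97.9 and 91.1 TPM in GC+GW9662. All GC libraries were far above all others, and the GC+GW9662 libraries lay above Control without overlap. The change was 2.92 ± 0.13 (adjusted p = 1.5e-06) in GC against Control, and it was called in each of the 8 fits that left out 1 library. In GC+GW9662 against Control it was 0.58 ± 0.13 (adjusted p = 0.0065), a call lost without Control replicate 1 (adjusted p = 0.055). Mrps6 shares 19.9% of its exon bases with Gm49711, annotated as protein-coding on the same strand, and reads there cannot be told apart. Slc5a3, a myo-inositol transporter gene that overlaps Mrps6 on the same strand and shares 10.4% of its exon bases, gave 16.7 and 15.4 TPM in Control, 11.9, 32 and 28 TPM in GC and 4.08, 3.37 and 4.21 TPM in GC+GW9662. Its GC libraries spanned the Control values, and its change of 0.44 ± 0.37 (adjusted p = 0.35) did not pass.

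In the large subunit, 14 of 49 tested members were higher in GC and 5 were lower, beside 16.2% and 39.1% of all genes. Mrpl32, whose mature form is cut by the protease AFG3L2 before assembly, measured 23.4 and 23.4 TPM in Control, 62.7, 45.1 and 51.2 TPM in GC and 35.1, 42.6 and 41.6 TPM in GC+GW9662. Every GC library was higher than every Control library, with a change of 1.13 ± 0.17 (adjusted p = 0.00063). Mrpl17 (chr7:105803206-105811099), which has a bacterial counterpart, measured 24.1 and 24.8 TPM in Control, 55.2, 44.3 and 48.5 TPM in GC and 38.9, 38.7 and 39 TPM in GC+GW9662. Its Control and GC libraries did not overlap and differed by 0.98 ± 0.13 (adjusted p = 0.00035). Mrps18a, a large subunit protein despite its name, rose by 0.92 ± 0.16 (adjusted p = 0.0017). Mrpl57, a protein gained by mitochondria, rose by 0.85 ± 0.23 (adjusted p = 0.014), though the call was lost without Control replicate 1 (adjusted p = 0.11). Mrpl36, a small protein with a bacterial counterpart, rose by 0.84 ± 0.16 (adjusted p = 0.0022). Mrpl12, part of the stalk that recruits translation factors, rose by 0.44 ± 0.12 (adjusted p = 0.017), from 91.3 ± 3.38 (SD, n = 2) to 125 ± 15.8 TPM (n = 3), but lost its call in 3 of the 8 fits that left out 1 library (highest adjusted p = 0.12 without Control replicate 2). Mrpl45, which anchors the ribosome to the inner membrane, measured 35 ± 2.67 and 32.3 ± 2.44 TPM and did not pass (-0.12 ± 0.14 (adjusted p = 0.50)), and its direction was the opposite under median-ratio and quantile scaling.

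The large subunit members that were lower in GC were Mrpl19, Mrpl54, Mrpl28, Mrpl42 and Mrpl18. Mrpl19 (chr6:81957851-81965958) measured 9.33 and 9.34 TPM in Control, 4.36, 4.52 and 5.58 TPM in GC and 9.78, 8.33 and 9.09 TPM in GC+GW9662. Its GC libraries lay below all the others, and its change of -0.83 ± 0.18 (adjusted p = 0.0044) was called in every fit that left out 1 library. It shares 36.0% of its exon bases with Gcfc2 on the opposite strand, and the libraries carry no strand. Mrpl54, a protein gained by mitochondria, measured 118 and 131 TPM in Control, 93.3, 62.1 and 66 TPM in GC and 197, 266 and 237 TPM in GC+GW9662, with GC lowest and GC+GW9662 highest and no overlap. It fell by 0.77 ± 0.20 (adjusted p = 0.011) in GC against Control, a call lost without Control replicate 2 (adjusted p = 0.08). Mrpl28 changed by -0.62 ± 0.21 (adjusted p = 0.037) but lost its call in 7 of the 8 fits (highest adjusted p = 0.15 without Control replicate 2), and Mrpl42 changed by -0.58 ± 0.14 (adjusted p = 0.0072), a call lost without Control replicate 2 (adjusted p = 0.064). Mrpl18, which is known to help import 5S ribosomal RNA, changed by -0.49 ± 0.16 (adjusted p = 0.032), with the opposite direction under median-ratio scaling and no call without either Control library (highest adjusted p = 0.15 without Control replicate 2).

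In the small subunit, 4 of 26 members were higher (Mrps6, Mrps7, Mrps11 and Mrps18b) and 3 were lower (Mrps5, Mrps15 and Mrps28). The shares of all genes were 16.2% and 39.1%. Mrps18b, a relative of Mrps18a that sits in the small subunit, rose by 0.70 ± 0.16 (adjusted p = 0.0072), a call lost without Control replicate 1 (adjusted p = 0.076). Mrps5, which helps form the entry path of the messenger RNA, measured 10.9 and 11.9 TPM in Control, 5.74, 7.74 and 8.26 TPM in GC and 6.64, 7.09 and 7.32 TPM in GC+GW9662. All GC libraries were below both Control libraries, with a change of -0.60 ± 0.19 (adjusted p = 0.028), but the direction was the opposite under quantile scaling and after removal of the length trend, and the call was lost without either Control library (highest adjusted p = 0.17 without Control replicate 2). Mrps15 (-0.46) and Mrps28 (-0.51) were lower in the deposited scale and reversed under median-ratio scaling, and their calls were lost in 4 and 7 of the 8 fits (highest adjusted p = 0.16 without Control replicate 1 and 0.18 without Control replicate 2). Mrps12, a protein of the decoding centre, measured 95.2 ± 13.8 and 107 ± 27.5 TPM and did not pass (0.15 ± 0.21 (adjusted p = 0.58)).

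The 18 higher members were also called higher under each of median-ratio scaling, quantile scaling, removal of the length trend and voom on recovered reads, whereas none of the 8 lower members was called under median-ratio or quantile scaling. The change shrank under median-ratio and quantile scaling to -0.35 (adjusted p = 0.098) and -0.06 (adjusted p = 0.80) for Mrpl19, -0.23 (adjusted p = 0.55) and -0.55 (adjusted p = 0.068) for Mrpl54, -0.074 (adjusted p = 0.86) and -0.42 (adjusted p = 0.16) for Mrpl28, and -0.051 (adjusted p = 0.86) and -0.11 (adjusted p = 0.69) for Mrpl42. With voom, Mrpl19 was the 1 of the 8 that was called. The counts 18 and 8 depended on single libraries as well. They became 9 and 3 without Control replicate 1 and 10 and 1 without Control replicate 2, and the lower calls became 19 without GC replicate 1 and 5 without GC replicate 3 or GC+GW9662 replicate 3. The members' median of 0.09 was 0.02 without GC replicate 1, 0.06 without Control replicate 1 and 0.17 without GC replicate 2. Under median-ratio scaling the counts were 42 and 0, where the median change of all genes moved from -0.38 to 0.04 and all genes split into 4070 higher and 4029 lower against 2428 and 5863 as deposited.

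**Figure D2:**
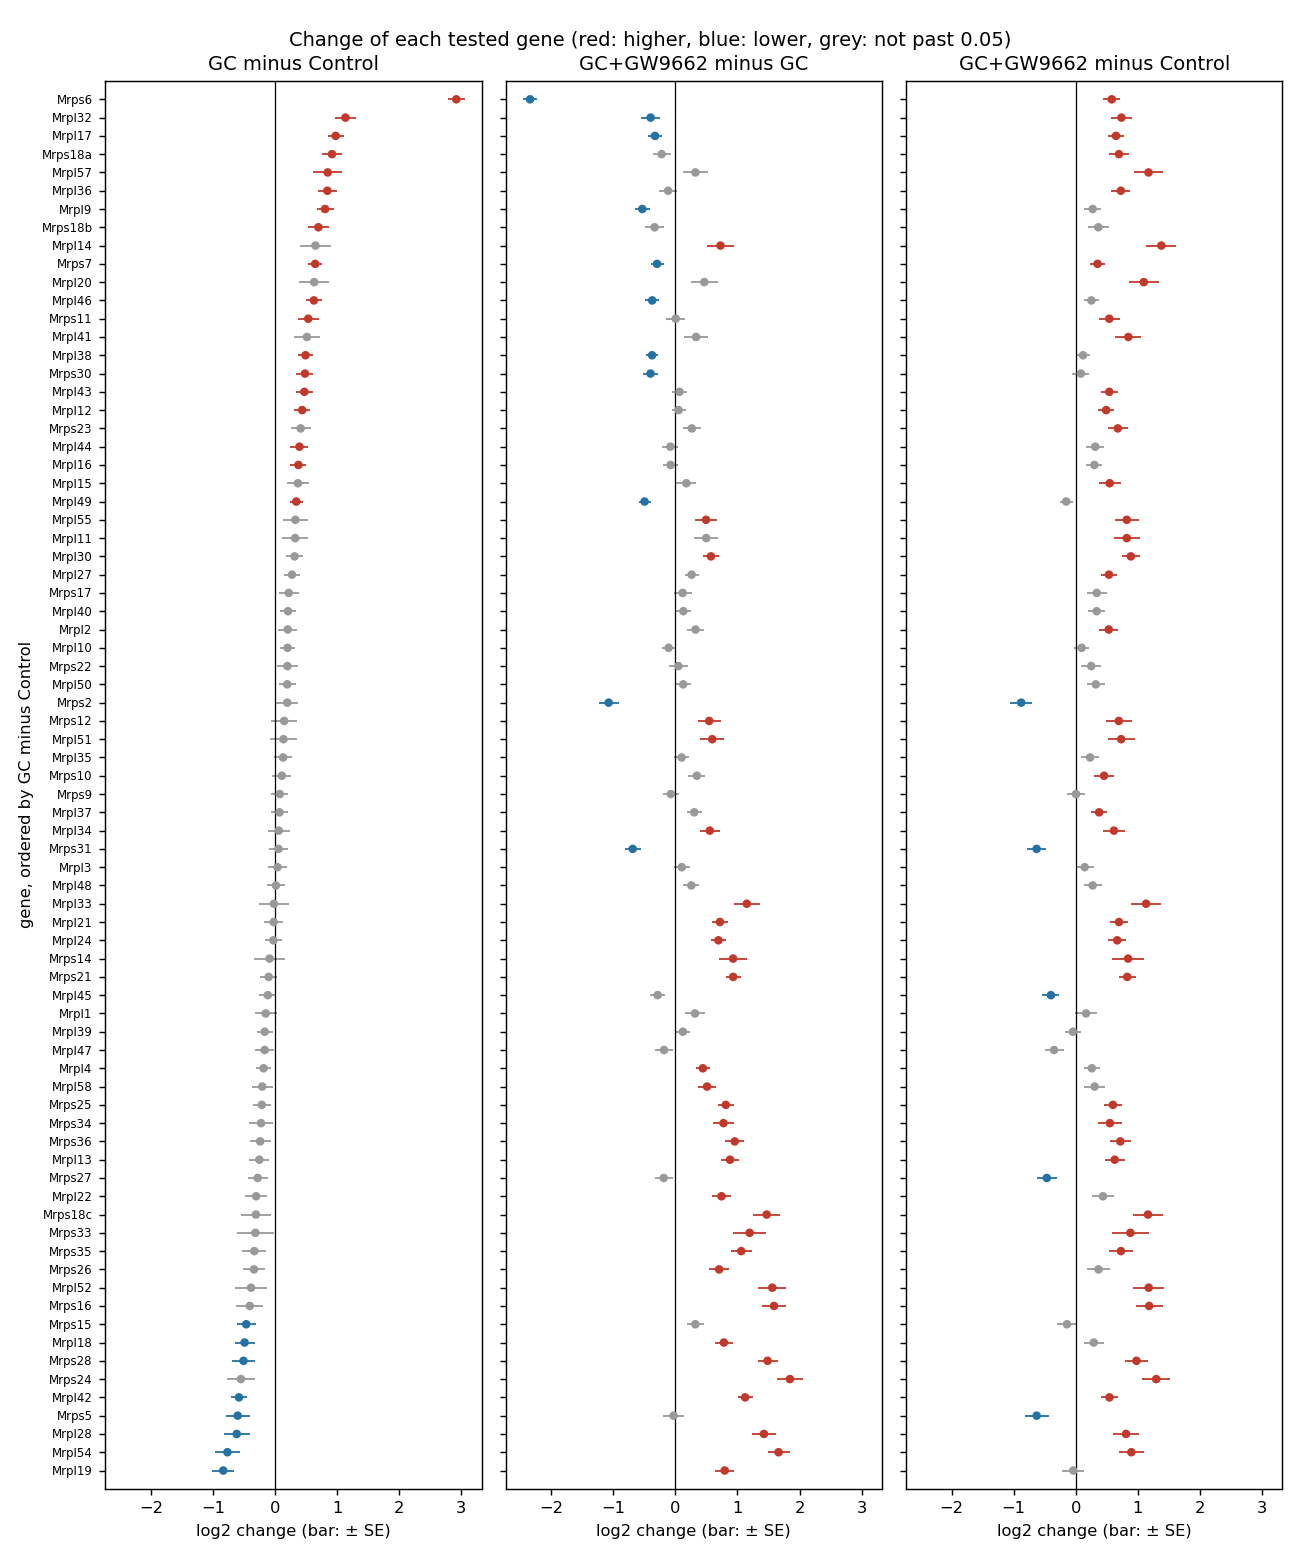
Points are log2 changes of the 76 tested members in the 3 comparisons with bars of ± SE, ordered by GC minus Control, in red where higher, blue where lower and grey where the adjusted p was above 0.05. Mrps6 is at 2.92 and -2.34 in the first and middle panels, and most members of the right panel lie above 0.

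Many members had higher transcript levels in the libraries labelled GC+GW9662 than in those labelled GC, and fewer had lower ones. In GC+GW9662 against GC, 31 of 76 members were higher, 11 were lower and 34 did not pass, with 28.3% of all genes higher, 33.5% lower and 61.7% called in either direction. The median change was 0.32, beside -0.11 for all genes, and 59 members lay above that median. In all, 13 called members changed at least 2-fold. This comparison shares the GC libraries with the one before, so the values of a member in both are side by side and are not independent.

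In the small subunit, 12 of 26 members were higher and 4 were lower, beside 28.3% and 33.5% of all genes. Mrps24 (chr11:5703983-5715680), which has a bacterial counterpart, measured 99 and 108 TPM in Control, 95.9, 53.4 and 68 TPM in GC and 237, 293 and 239 TPM in GC+GW9662. All GC+GW9662 libraries exceeded all others, and the change was 1.84 ± 0.20 (adjusted p = 0.00014). Mrps24 shares 15.4% of its exon bases with the protein-coding Urgcp on the same strand. Mrps16, another protein with a bacterial counterpart, measured 28.1 and 32.6 TPM in Control, 30.2, 17.2 and 22 TPM in GC and 67.4, 76.6 and 66.1 TPM in GC+GW9662. Its Control and GC libraries overlapped, while the GC+GW9662 libraries were above both, by 1.59 ± 0.20 (adjusted p = 0.00026) against GC. Mrps28 rose by 1.48 ± 0.16 (adjusted p = 0.00013) and Mrps18c, a relative of Mrps18a and Mrps18b, by 1.47 ± 0.22 (adjusted p = 0.00068). Mrps18c shares 23.2% of its exon bases with Gm43511 on the same strand. Mrps12 rose by 0.54 ± 0.19 (adjusted p = 0.034), a call lost in 4 of the 8 fits (highest adjusted p = 0.10 without GC+GW9662 replicate 2) and after removal of the length trend (0.28, adjusted p = 0.15).

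The small subunit members that fell were Mrps6, Mrps2, Mrps31 and Mrps7. Mrps6 changed by -2.34 ± 0.12 (adjusted p = 2.5e-06), and the overlapping Slc5a3 by -2.24 ± 0.33 (adjusted p = 0.00069). Mrps2 (chr2:28468066-28471178), which has a bacterial counterpart, measured 34.8 and 34.7 TPM in Control, 32.3, 46.9 and 42 TPM in GC and 19.1, 16.2 and 20.2 TPM in GC+GW9662. Its GC+GW9662 libraries were lowest of all, and the change was -1.07 ± 0.16 (adjusted p = 0.00075). Mrps31, a protein gained by mitochondria, measured 15.4 and 16 TPM in Control, 15.1, 16.8 and 17.3 TPM in GC and 10.00, 10.4 and 9.06 TPM in GC+GW9662. Its Control and GC libraries overlapped and the GC+GW9662 libraries lay below both, by -0.69 ± 0.13 (adjusted p = 0.0026) against GC. Mrps7 changed by -0.30 ± 0.11 (adjusted p = 0.039), a call lost in 6 of the 8 fits (highest adjusted p = 0.096 without GC+GW9662 replicate 2).

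Of the large subunit, 18 of 49 tested members were higher and 7 were lower, beside 28.3% and 33.5% of all genes. Mrpl54 rose by 1.66 ± 0.18 (adjusted p = 0.00012) and Mrpl52, gained by mitochondria, by 1.56 ± 0.23 (adjusted p = 0.00064). Mrpl52 measured 149 and 168 TPM in Control, 167, 85 and 125 TPM in GC and 319.9, 407 and 355 TPM in GC+GW9662, and its GC+GW9662 libraries were higher than every other library. Among those that were lower, Mrpl9 (-0.53 ± 0.12 (adjusted p = 0.0064)) and Mrpl49 (-0.50 ± 0.10 (adjusted p = 0.0027)) were called in every fit that left out 1 library. Mrps30, which sits in the large subunit despite its name, changed by -0.40 ± 0.12 (adjusted p = 0.021), but reversed after removal of the length trend and lost its call in 3 of the 8 fits (highest adjusted p = 0.071 without GC replicate 3). Mrpl17 (-0.33) was lower too, reversed after removal of the length trend, and lost its call in 6 of the 8 fits (highest adjusted p = 0.094 without GC+GW9662 replicate 3). Mrpl32 (-0.40) lost its call in 7 (highest adjusted p = 0.14 without GC+GW9662 replicate 1) and Mrpl46 (-0.37) in 2 (highest adjusted p = 0.058 without GC+GW9662 replicate 2). Mrpl38 (-0.38 ± 0.10 (adjusted p = 0.013)) completed the 7. Mrpl12 (0.05 ± 0.11 (adjusted p = 0.70)) and Mrpl45 (-0.29 ± 0.12 (adjusted p = 0.07)) did not pass. Mrps36, named as a member but known as a part of the 2-oxoglutarate dehydrogenase complex and not of the ribosome, rose by 0.96 ± 0.15 (adjusted p = 0.001).

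The 11 lower calls became 7 without GC replicate 3, GC+GW9662 replicate 1 or GC+GW9662 replicate 3, 6 without GC+GW9662 replicate 2, and 4 under median-ratio scaling (Mrps6, Mrps2, Mrps31 and Mrpl49). With voom 3 of the 11 were called (Mrps6, Mrps2 and Mrps31), and the change was -0.28 (adjusted p = 0.13) for Mrpl9, -0.25 (adjusted p = 0.082) for Mrpl49 and -0.12 (adjusted p = 0.51) for Mrpl38. The 31 higher calls ranged from 25 to 43 over the 8 fits, and the median from 0.21 to 0.41.

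**Figure D3:**
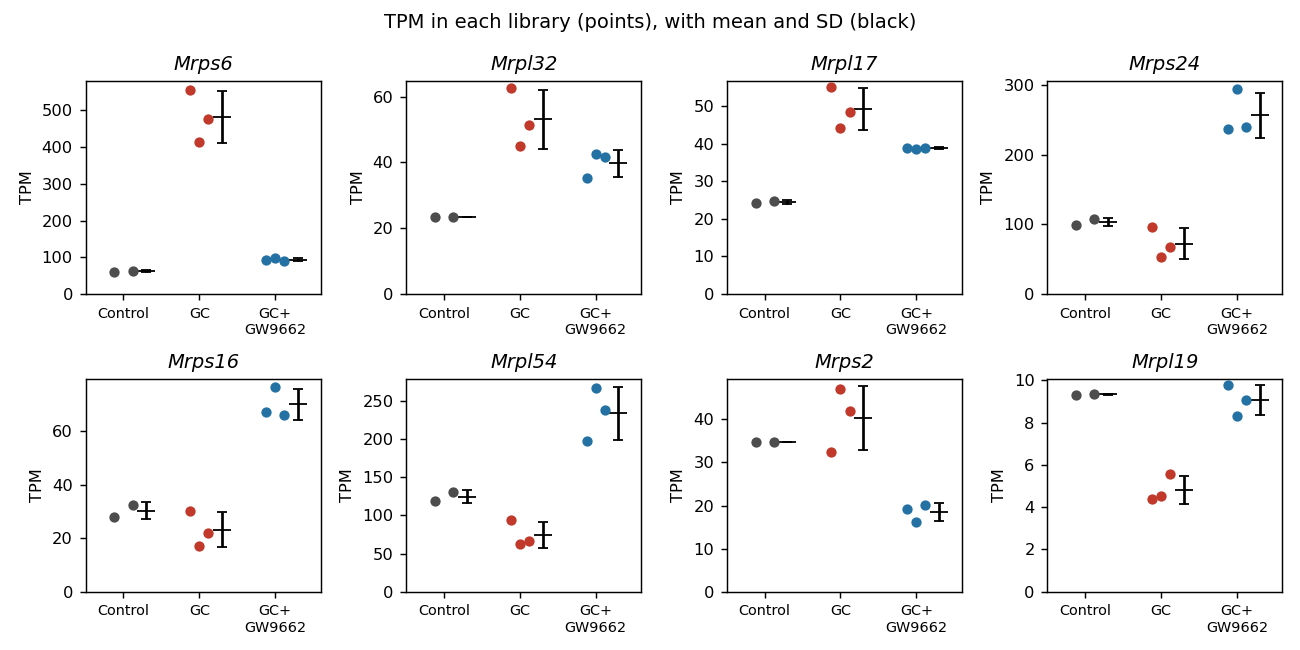
Points are the TPM of 8 members in each library on linear axes from 0, with the mean and SD of each group in black. Mrps6 is highest in the GC libraries, Mrpl32 and Mrpl17 are highest in GC, Mrps24, Mrps16 and Mrpl54 are highest in GC+GW9662, Mrps2 is lowest there, and Mrpl19 is lowest in GC.

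Members of the mitochondrial ribosome were mostly higher in the libraries labelled GC+GW9662 than in those labelled Control. In GC+GW9662 against Control, 44 of 76 members were higher, 5 were lower and 27 did not pass, with 14.1% of all genes higher, 48.6% lower and 62.7% called in either direction. The median change of the members was 0.54 and that of all genes was -0.49, which puts the members 1.03 above, with 73 of 76 members above the median of all genes. The largest rises were those of Mrpl14, Mrps24, Mrps16, Mrpl52, Mrpl57 and Mrps18c. Mrpl14, a protein at the face between the subunits, measured 132 and 157 TPM in Control, 318, 171 and 214 TPM in GC and 331, 424 and 378 TPM in GC+GW9662. All its GC libraries were above both Control libraries, where the difference of 0.65 ± 0.24 (adjusted p = 0.051) did not pass, and the GC+GW9662 libraries exceeded both, by 1.38 ± 0.24 (adjusted p = 0.0029) against Control. Mrps24 rose by 1.30 ± 0.23 (adjusted p = 0.0028), Mrps16 by 1.18 ± 0.22 (adjusted p = 0.0032), Mrpl52 by 1.17 ± 0.25 (adjusted p = 0.0052), Mrpl57 by 1.17 ± 0.23 (adjusted p = 0.0038) and Mrps18c by 1.16 ± 0.24 (adjusted p = 0.0045). Mrpl20, the member with the highest level, measured 226 and 279 TPM in Control, 553, 292 and 366 TPM in GC and 503, 596 and 519 TPM in GC+GW9662 and rose by 1.10 ± 0.25 (adjusted p = 0.0059), a call lost without Control replicate 1 (adjusted p = 0.052). Mrpl12 rose by 0.49 ± 0.12 (adjusted p = 0.0097), but not without either Control library (highest adjusted p = 0.073 without Control replicate 2).

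The 5 that were lower were Mrps2, Mrps31, Mrps5, Mrps27 and Mrpl45, of which 4 belong to the small subunit. None of the 5 was called under median-ratio scaling, quantile scaling or voom on recovered reads. Mrps2 changed by -0.88 ± 0.18 (adjusted p = 0.0044), and by -0.21 (adjusted p = 0.16), -0.14 (adjusted p = 0.37) and -0.40 (adjusted p = 0.056) under these settings in turn. The others reversed under at least 1 other scaling: Mrps31 (-0.63), Mrps27 (-0.47) and Mrpl45 (-0.40) under median-ratio and quantile scaling, and Mrps5 (-0.63) under quantile scaling and removal of the length trend. Their calls were also lost without either Control library, with adjusted p up to 0.061, 0.21, 0.21 and 0.13 in that order. Mrpl32 (0.74 ± 0.17 (adjusted p = 0.0059)) and Mrps12 (0.69 ± 0.21 (adjusted p = 0.02)) rose, the latter losing its call in 3 of the 8 fits (highest adjusted p = 0.14 without Control replicate 1) and after removal of the length trend (0.39, adjusted p = 0.11), and Mrps18b (0.36 ± 0.16 (adjusted p = 0.084)) did not pass. The counts became 18 and 1 without Control replicate 1 and 27 and 1 without Control replicate 2, and the lower calls became 3 without GC replicate 3 or GC+GW9662 replicate 2. Under median-ratio scaling they were 70 and 0, with all genes at 4387 higher and 4744 lower against 2114 and 7284 as deposited.

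The members were also counted by ancestry, subunit and length. Of all tested genes, 16.2% were higher and 39.1% lower in GC against Control, and 28.3% and 33.5% in GC+GW9662 against GC. In GC+GW9662 against Control these shares were 14.1% and 48.6%. Of 45 tested members with a bacterial counterpart, 9 were higher and 6 lower in GC against Control, 20 and 6 in GC+GW9662 against GC, and 29 and 2 in GC+GW9662 against Control. Of 30 gained by mitochondria the counts were 9 and 2, 10 and 5, and 14 and 3 in the same order. By subunit, GC+GW9662 against Control gave 27 higher and 1 lower of 49 in the large and 16 and 4 of 26 in the small. All genes, sorted by exon length into 10 bins, had a median change in GC+GW9662 against Control that ran from 0.59 in the shortest bin to -1.68 in the longest. Spearman's rho of change with length was -0.65 over 14980 genes and -0.34 over the 76 members, which share libraries and are not independent. In that comparison the 26 shortest members had 22 higher and 0 lower, the 25 of middle length 10 and 4, and the 25 longest, of 3332 to 8631 bases, 12 and 1. The longest members had a median of 0.37, where the 4 bins of all genes with a median length in that range had medians from -0.72 to -1.39. Exon length here is the union of all exons annotated for a gene, and it can exceed the length of its transcripts. Members and other genes were therefore set side by side by annotated exons and not by transcript length. The removal of the length trend used the same lengths. In GC against Control rho was -0.01 over the members and -0.33 over all genes, and in GC+GW9662 against GC it was -0.22 and -0.26.

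**Figure D4:**
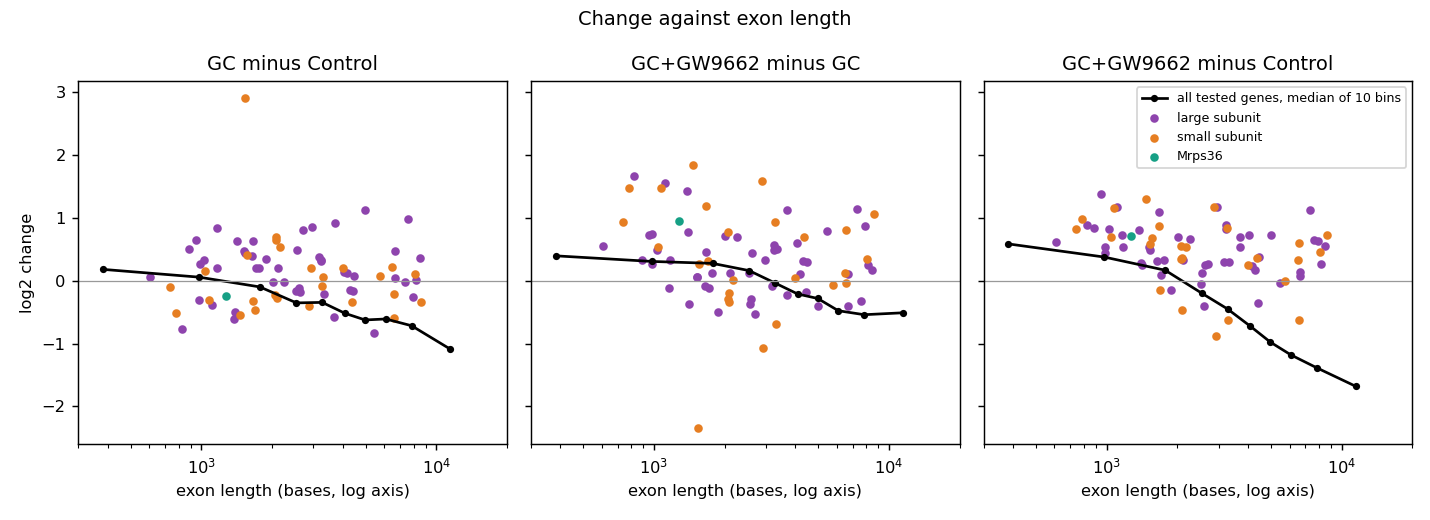
Each coloured point is a tested member, by exon length in bases on a log axis and log2 change, in the large subunit (purple), the small subunit (orange) or neither (Mrps36, green), and the black line joins medians of 10 length bins of all tested genes. The members longest by annotated exons lie mostly above the line in every panel.

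Some proteins of the mitochondrial ribosome carry other names. Of 5 such genes, GC+GW9662 against GC gave 4 higher and 1 lower, beside 28.3% and 33.5% of all genes. Chchd1 rose by 1.07 ± 0.22 (adjusted p = 0.0037), Aurkaip1 by 0.78 ± 0.16 (adjusted p = 0.0039) and Gadd45gip1 by 0.39 ± 0.13 (adjusted p = 0.033). Dap3, a small subunit protein first described in cell death, measured 36.2 ± 0.247 (SD, n = 2), 20.8 ± 0.436 (n = 3) and 27.5 ± 3.96 TPM (n = 3), with a difference in GC against Control of -0.77 ± 0.15 (adjusted p = 0.0027), which was -0.24 (adjusted p = 0.20) under median-ratio scaling and -0.097 (adjusted p = 0.70) after removal of the length trend. Gadd45gip1 lost its call after removal of the length trend (0.25, adjusted p = 0.15) and in 7 of the 8 fits that left out 1 library. Ptcd3 was the one lower in GC+GW9662, with a change of -1.22 ± 0.33 (adjusted p = 0.013). The RNA of the ribosome itself, as captured in these libraries, was higher in GC than in Control. The change was 1.0 ± 0.14 (adjusted p = 0.00044) for mt-Rnr1 of the small subunit and 0.61 ± 0.12 (adjusted p = 0.0037) for mt-Rnr2 of the large. Of the 12 tested genes for the proteins this ribosome makes, 0 were higher and 11 lower in that comparison, beside 16.2% and 39.1% of all genes. Among them mt-Nd1 was at 10962 ± 214 TPM in Control and 1088 ± 182 in GC. Against GC, the GC+GW9662 libraries had 7 of those 12 higher and 2 lower, and neither ribosomal RNA passed. The preparation took total RNA into Smart-Seq2, so values of mt-Rnr1 and mt-Rnr2 cover only molecules that this method turned into cDNA. Whether they follow the amount of ribosomal RNA in the cells was not tested.

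Further lists held the genes that build or serve the ribosome, to be read beside 16.2% of all genes higher and 39.1% lower in GC against Control and 28.3% and 33.5% in GC+GW9662 against GC. Of 30 assembly factors, 9 were higher and 5 lower in GC against Control, and 7 higher and 11 lower in GC+GW9662 against GC. Mterf3, which binds ribosomal RNA in assembly, gave 1.33 ± 0.14 (adjusted p = 0.00011) and then -1.05 ± 0.13 (adjusted p = 0.00023), and Rbfa, a maturation factor of the small subunit, the reverse, -0.90 ± 0.11 (adjusted p = 0.0003) and 0.85 ± 0.10 (adjusted p = 0.00023). Rbfa lost its GC call under median-ratio scaling (-0.36, adjusted p = 0.07). Mpv17l2, which associates with the large subunit, rose by 0.99 ± 0.12 (adjusted p = 0.00029) in GC+GW9662 against GC. Afg3l2, the protease that matures MRPL32, measured 52.3 and 46.6 TPM in Control, 55.6, 133 and 111 TPM in GC and 14.4, 10.1 and 11.7 TPM in GC+GW9662. Its GC+GW9662 libraries were the lowest, -2.87 ± 0.30 (adjusted p = 0.00012) against GC, and its GC libraries were spread widely. Of 15 translation factors, 1 was higher and 4 lower in GC against Control, with the release factor gene Mtrf1 at -1.96 ± 0.22 (adjusted p = 0.00014) and the membrane insertase gene Oxa1l at -1.36 ± 0.16 (adjusted p = 0.0002), and 3 were higher and 6 lower in GC+GW9662 against GC. Of 15 tested genes for transcribing and copying mitochondrial DNA, 3 were higher and 6 lower in GC against Control. Among them were the helicase gene Twnk (1.16 ± 0.23 (adjusted p = 0.0033)), Hsd17b10, a part of mitochondrial RNase P (-1.24 ± 0.17 (adjusted p = 0.00048)), and Mterf2 (-2.16 ± 0.22 (adjusted p = 7.9e-05)), of which Hsd17b10 was not called under median-ratio scaling (-0.69, adjusted p = 0.053). Against GC, in GC+GW9662 4 were higher and 6 lower, and Twnk (-2.05) and Hsd17b10 (1.75) had the opposite signs. Of 15 chaperones and proteases, 3 and 3 passed in GC against Control, including a rise of the protease gene Clpp by 1.16 ± 0.13 (adjusted p = 0.00016), and 2 and 10 in GC+GW9662 against GC, including the chaperone gene Hspa9 at -2.48 ± 0.29 (adjusted p = 0.00019).

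Regulators known for genes of mitochondria were tested as well. Of 13, 5 were higher and 3 lower in GC against Control, and 1 higher and 9 lower in GC+GW9662 against GC. The shares of all genes were 16.2% and 39.1% in the former and 28.3% and 33.5% in the latter. Tfam, which packages and transcribes mitochondrial DNA, did not pass in either comparison (0.14 ± 0.15 (adjusted p = 0.46) and -0.13 ± 0.14 (adjusted p = 0.41)). Nrf1 did not pass in GC against Control (0.34 ± 0.24 (adjusted p = 0.26)) and was lower in GC+GW9662 than in GC (-1.48 ± 0.21 (adjusted p = 0.00057)). Gabpa, the ETS-domain part of GABP, measured 32.2 and 33.2 TPM in Control, 15.1, 52.3 and 39.7 TPM in GC and 5.24, 5.05 and 4.95 TPM in GC+GW9662. Its GC libraries spanned the Control values, and the GC+GW9662 libraries were below all others, -2.43 ± 0.39 (adjusted p = 0.001) against GC. Myc, a driver of growth and ribosome production, was lower in GC (-2.08 ± 0.24 (adjusted p = 0.00017)) and did not pass in GC+GW9662 against GC (-0.0047 ± 0.21 (adjusted p = 0.99)). Esrra, a nuclear receptor that acts on oxidative genes, was lower in GC (-0.71 ± 0.16 (adjusted p = 0.0064)) and higher in GC+GW9662 than in GC (1.20 ± 0.14 (adjusted p = 0.00023)). Its GC call was lost under median-ratio scaling (-0.17, adjusted p = 0.59), quantile scaling (-0.39, adjusted p = 0.18), voom (-0.48, adjusted p = 0.088) and removal of the length trend (-0.13, adjusted p = 0.67). Atf4, a transcription factor of the integrated stress response, measured 323 ± 1.31, 2042 ± 82.6 and 322 ± 10.2 TPM, with changes of 2.66 ± 0.09 (adjusted p = 4.5e-07) and -2.66 ± 0.08 (adjusted p = 2.5e-07). Ppargc1a, a coactivator of mitochondrial biogenesis, was below the filter, with group means of 0.393, 0.00426 and 0.153 TPM.

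The members were also set beside the cytosolic ribosome and the respiratory chain. Of all tested genes, 16.2% were higher and 39.1% lower in GC against Control, and 28.3% and 33.5% in GC+GW9662 against GC. In GC against Control, 13 of 79 cytosolic ribosomal protein genes were higher and 5 lower, with a median of 0.23. Of 74 nuclear genes of the respiratory chain, 1 was higher and 22 lower, with a median of -0.29, beside 18 and 8 of 76 and 0.09 for the members. In GC+GW9662 against GC the counts were 58 and 4 with a median of 0.76 for cytosolic ribosomal proteins, 65 and 1 with a median of 1.18 for the respiratory chain, and 31 and 11 with 0.32 for the members. The medians in GC+GW9662 against Control were 1.03, 0.92 and 0.54 in the same order. The 3 sets were not tested against each other. Their tested genes had median exon lengths of 1739, 1737 and 2394 bases.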

How the data were processed

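RNA was measured in 8 libraries of mouse cells in 3 groups, taken from the labels. The authors deposited TPM per gene in a single table. Per the submitters' processing notes, fastp, HISAT2 2.1.0 and featureCounts were used. The genome build and annotation are not given in the sources used here. Gene starts and ends in 97.6% of rows were identical to GENCODE M21, the source of exon lengths. The table's 54232 rows gave 54134 genes, 26 symbols that had become dates were restored by Ensembl ID, and 0 columns of per-sample values were left unmapped.

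A gene was tested if its level was 1 TPM or more in 2 or more libraries. The deposited TPM, plus 1, was put on the log2 scale for limma (3.58.1, in R 4.3.3 with version 1.17.8 of data.table). The model had a mean per group over all 8 libraries and an empirical Bayes prior following mean expression. Tests were two-sided with Benjamini-Hochberg adjustment at 0.05 over 14985 genes in each of 3 comparisons. The fit was also run on simulated data with independent noise and few changed genes. In these data many genes were called, so that run cannot vouch for the calls given here. Whole reads were recovered from the deposited TPM for 99.99% of 26812 genes above 0 (tolerance 0.02 reads). Of these, 11693 gave whole reads at their GENCODE M21 exon length. The other 15115 gave them at a length found by a search from 50 to 30000 bases. Where several lengths fitted, the smallest was used, which can make depth estimates too low. Tables, motif searches and plots used Python 3.11.15 (numpy 2.4.6, pandas 2.3.3, scipy 1.17.1, numba 0.67.0, matplotlib 3.10.9). The NRF1 motif and the glucocorticoid response element are named without their letters.

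The members, gene lists and rules were chosen with earlier results of these data known. Members were named by rule: per comparison the 6 largest rises and 6 largest falls among called members whose groups did not overlap, calls against the majority, the 5 highest and 5 lowest levels, those under the filter, and Mrpl12, Mrpl45, Mrpl32, Mrps12, Mrps5 and Mrps18b. From other lists up to 4 called genes with the smallest adjusted p were taken, lists of 7 or fewer genes whole, and Tfam, Nrf1, Gabpa, Ppargc1a, Myc and Esrra, of which not all are printed. Slc5a3, Fkbp5, Tsc22d3 and Fth1, and the 4 printed sequences, were chosen after values were seen. Other settings tried were pseudocounts (0.1 and 5), dropping the filter or raising it to 5 TPM, median-ratio, quantile and length-trend scaling, rescaling without mitochondrial and the top 20 genes, other priors, library weights, the compared groups alone, replicate blocks and 8 fits that each left out 1 library. A limma voom fit on recovered reads was added after seeing the data.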

Additional observations from a re-analysis of the deposited data

How the results depend on the processing

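The members' median change stayed above that of all genes in each of the 23 alternative fits, by 0.12 to 0.65 in GC against Control, 0.26 to 0.60 in GC+GW9662 against GC and 0.58 to 1.21 in GC+GW9662 against Control. Some of these fits could not move the difference, so the 23 are not separate checks. Other priors and the compared groups alone left it at 0.48 in GC against Control, as in the main fit. Median-ratio scaling moved both medians there, to 0.61 for the members and 0.04 for all genes. GC against Control had 18 higher and 8 lower calls as reported (median 0.09), which became 42 and 0 (median 0.61) under median-ratio scaling, 42 and 0 (0.60) under quantile scaling, 37 and 4 (0.48) after removal of the length trend and 27 and 2 (0.29) on rescaling without mitochondrial and the top 20 genes. They were 25 and 1 (0.35) with voom, 35 and 27 with library weights and 11 and 4 in the compared groups alone. Lower calls were 4 with a constant prior and 4 with no filter. GC+GW9662 against GC had 31 higher and 11 lower as reported (median 0.32). Its lower calls were 4, 6 and 3 with median-ratio scaling, quantile scaling and voom, the higher calls 47 with library weights, and the median 0.46, 0.58 and 0.18 with median-ratio scaling, voom and the rescaling. GC+GW9662 against Control had 44 and 5 as reported (0.54), and 70 and 0 (1.22) under median-ratio scaling, 70 and 0 (0.95) under quantile scaling and 69 and 0 (1.06) with voom, with 2 lower after removal of the length trend and 3 on the rescaling. Over all genes, 2428 higher in GC against Control became 4311, 4070, 4187 and 4267 with library weights, median-ratio scaling, quantile scaling and removal of the length trend, and 5863 lower became 3876 without Control replicate 1. In GC+GW9662 against Control, 2114 higher became 3658, 4387, 4216 and 3548 with voom, median-ratio scaling, quantile scaling and removal of the length trend and 902 and 1261 without Control replicate 1 or 2, and 7284 lower became 4744, 4443 and 3420 with the 3 scalings and 4696 without Control replicate 1. The cause was not tested.

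With the replicate number as a replicate block, GC against Control gave 11 higher and 4 lower by the title's number and 3 lower by the bracketed one. GC+GW9662 against GC gave 6 and 7 lower, and GC+GW9662 against Control 3 and 3. Same-numbered GC and GC+GW9662 libraries correlated at -0.097, -0.117 and 0.079 in their deviations from the group means. Deviations from means of so few libraries cannot tell whether same-numbered libraries shared a culture or animal. Over the 8 fits that left out 1 library, higher and lower calls ranged over 9 to 25 and 1 to 19 in GC against Control, 25 to 43 and 6 to 12 in GC+GW9662 against GC and 18 to 53 and 1 to 6 in GC+GW9662 against Control. The medians ranged over 0.02 to 0.17, 0.21 to 0.41 and 0.52 to 0.56 in the same order. Where these leave 1 library in Control, it is assumed to vary like the others.

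Some genes changed direction. Under median-ratio scaling the log2 changes were Mrpl18 0.048, Mrpl45 0.41, Mrps15 0.074, Mrps28 0.026 in GC against Control and Mrpl19 0.58, Mrpl45 0.27, Mrpl49 0.53, Mrps15 0.54, Mrps27 0.20, Mrps31 0.010, Dap3 0.28, Rbfa 0.64, Oxa1l 0.00098, Atf4 0.69, mt-Nd1 0.21 in GC+GW9662 against Control. Quantile scaling gave Mrpl45 0.38, Mrps5 0.14 in GC against Control and mt-Rnr2 -0.22 in GC+GW9662 against GC and Mrpl19 0.94, Mrpl45 0.30, Mrpl47 0.63, Mrpl49 0.30, Mrps27 0.26, Mrps31 0.33, Mrps5 0.35, Dap3 0.29 in GC+GW9662 against Control. Removal of the length trend gave Mrps5 0.079 in GC against Control and Mrpl17 0.20, Mrps30 0.094, Mrps5 0.46 in GC+GW9662 against GC and Mrpl19 0.97, Mrps5 0.54, Nrf1 0.39, Dap3 0.77, Oxa1l 0.13 in GC+GW9662 against Control. With voom they were Mrpl19 0.47, Mrpl45 0.099, Mrpl49 0.36, Mrps27 0.031, Dap3 0.11, Rbfa 0.46, Atf4 0.51, mt-Nd1 0.030 in GC+GW9662 against Control. With library weights the change was Gabpa 0.27 in GC against Control. Gabpa was -0.40 without GC replicate 2 and 0.47 without GC replicate 1, in GC against Control.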
